A study of Canis rufus and Canis latrans with 56 samples.

Results

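In whole blood 1 coyote stood apart from 13 red wolves in the levels of 8 genes, RBP4, RBM7, AMZ2, TBPL1, ATXN2, CYSTM1, EFNB3 and CTBP2. They were chosen by the level of the coyote against the range and spread of the wolves, so their coyote differences are given as descriptions, without a test. The 8 genes have 10 of the 24354 probes of the array, with 3 probes for CTBP2 and 1 for each other gene. The measures that the choice did not fix are the relations of the genes to each other over the wolves, the genes that share their pattern, and the levels of their partners.

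RNA came from whole blood of red wolves (Canis rufus) and a coyote (Canis latrans, a close wild relative), kept in RNAlater, and after amplification and biotin labelling it was put on human Illumina bead arrays. Of the wolves 6 were captive (2 females and 4 males) and 7 free-ranging (2 females and 5 males), and the coyote was a free-ranging female; which wolf had which status or sex was not used here. The labelled RNA of each animal went onto 4 arrays, which are repeats of 1 labelled sample, so an animal counts once, with a value fitted to its 4 arrays after removal of slide differences. Values are probe intensities on the log2 scale, set against the array's mean, so a difference of 1 is 2-fold. How precise a value is depends on the number of its arrays, 4 an animal. With 1 coyote, a difference between species and a difference between individuals cannot be told apart, and age is not given. The gene names are those of the human probes, and how well coyote and wolf transcripts bind each probe was not tested.

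The 8 genes come from different parts of cell biology. RBP4 is the plasma carrier of retinol, made mainly in liver and fat. RBM7 is a subunit of the complex that brings unwanted nuclear transcripts to the RNA exosome for decay, and CTBP2 is a corepressor that recruits histone-modifying enzymes to DNA-binding repressors. TBPL1 is a relative of the TATA-binding protein that takes its place at some promoters without a TATA box, and ATXN2, ataxin-2, binds the poly(A)-binding protein and goes into stress granules. EFNB3 is a membrane-bound ligand of Eph receptors, best known from axon guidance, AMZ2 is a zinc metallopeptidase of the archaemetzincin family, and CYSTM1 is a small cysteine-rich membrane protein.

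The arrays carried blood transcripts but resolved few white cell markers. The globin probe HBD had a mean level of 6.21 over the wolves and HBB, the adult beta-globin, 1.09. Background was bounded by HPX, which at 0.396 had the highest mean of the 39 liver and skeletal muscle genes on the array, and 2064 probes exceeded it. Of the markers of neutrophils 1 of 17 lay above it, of monocytes 2 of 12, of T and cytotoxic cells 2 of 16, of B and plasma cells 0 of 10, of platelets 1 of 11 and of red cells 7 of 15. The bound is a mean over the animals, and in single wolves HPX itself ran from 0.20 to 0.63. In blood, fewer cells of a type and less RNA per cell cannot be told apart.

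CYSTM1, the small membrane protein gene, had the largest difference of the 8. The coyote stood at 4.36 and the wolves between 1.11 (wolf 11273) and 3.72 (wolf 111080), with a median of 2.89 and a mean of 2.51 ± 0.83 (SD, n = 13). The difference was 1.85 (SE 0.73), or 3.61-fold, and the coyote did not overlap the wolves. The wolves themselves spanned 6.07-fold, so the coyote lay only 2.25 SDs of the wolves above their mean. All 4 coyote arrays, from 4.23 to 4.60, exceeded each of the 52 wolf arrays.

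ATXN2 and TBPL1, a gene of RNA binding and one of promoter recognition, were both higher in the coyote by close to the same amount, 2.30-fold and 2.29-fold. ATXN2 stood at 2.25 in the coyote and between 0.21 (wolf 11273) and 1.91 (wolf 111080) in the wolves, with a median of 0.88 and a mean of 1.05 ± 0.54 (SD, n = 13), a difference of 1.20 (SE 0.42). TBPL1 stood at 2.01 in the coyote and between 0.27 (wolf 10406) and 1.41 (wolf 111080) in the wolves, with a median of 0.77 and a mean of 0.81 ± 0.40 (SD, n = 13), a difference of 1.20 (SE 0.32). For both genes the coyote lay above every wolf, and 3 of its 4 arrays exceeded each wolf array. In 12 of the 13 wolves ATXN2 was above the background bound, and in 11 of them TBPL1.

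RBP4, the retinol carrier, and RBM7, the exosome adaptor, were dim in most wolves and stood above the background bound in the coyote. RBP4 stood at 0.82 in the coyote and between -0.10 (wolf 11274) and 0.31 (wolf 11136) in the wolves, with a median of 0.14. None of the 13 wolves (0) exceeded the bound, and the coyote stood 0.43 above it. Relative to the bound itself RBP4 was 1.34-fold higher in the coyote, against 1.61-fold from the values as they stand. The coyote lay 5.40 SDs of the wolves above their mean, the farthest of the 8 genes. RBM7 stood at 0.86 in the coyote and between -0.02 (wolf 11136) and 0.57 (wolf 111080) in the wolves, with a median of 0.08, and lay 3.78 SDs above their mean. Only wolves 111080 and 11310 had RBM7 above the bound, at 0.57 and 0.47, and against the bound itself the coyote was 1.38-fold higher. For RBP4 and for RBM7 all 4 coyote arrays exceeded each wolf array.

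AMZ2 was near or below the background bound in every animal. It stood at 0.38 (SE 0.07) in the coyote, just below the bound, and between -0.44 (wolf 11275) and 0.10 (wolf 11270) in the wolves, with a median of -0.22. Its 4 coyote arrays were spread from 0.07 to 0.75, and 2 of them exceeded the bound and each wolf array. The coyote lay 3.44 SDs of the wolves above their mean.

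EFNB3 was the only gene of the 8 that was lower in the coyote. It stood at -0.17 there and between 0.28 (wolf 11136) and 1.32 (wolf 11206) in the wolves, with a median of 0.60 and a mean of 0.68 ± 0.34 (SD, n = 13). The difference was -0.85 (SE 0.27), and all 4 coyote arrays, from -0.28 to -0.01, lay below each wolf array. Of the wolves 10 were above the background bound, and the coyote was below it. The wolves' mean lay 0.29 above the bound, so with the coyote set at the bound EFNB3 was 1.22-fold lower there, against 1.81-fold from the values as they stand.

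CTBP2 stood apart on 1 of its 3 probes. The first, which by its suffix in the array's naming detects all transcripts of the gene, stood at 0.71 in the coyote and between -0.21 (wolf 10406) and 0.43 (wolf 11206) in the wolves, with a median of 0.19, a difference of 0.54 (SE 0.15). Only 2 of the 13 wolves exceeded the bound on this probe, and against the bound itself the coyote was 1.25-fold higher. Of its coyote arrays 2 of 4 exceeded each wolf array. Both probes of single transcripts were also below the bound in all animals and had the coyote inside the range of the wolves. The first of these read -0.13 in the coyote against -0.12 ± 0.07 (SD, n = 13) over the wolves. The last read -0.18 in the coyote against -0.36 ± 0.12 over the wolves. No level of a particular CTBP2 transcript above background was measured, and CTBP2 below means the first probe.

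**Figure D1:**
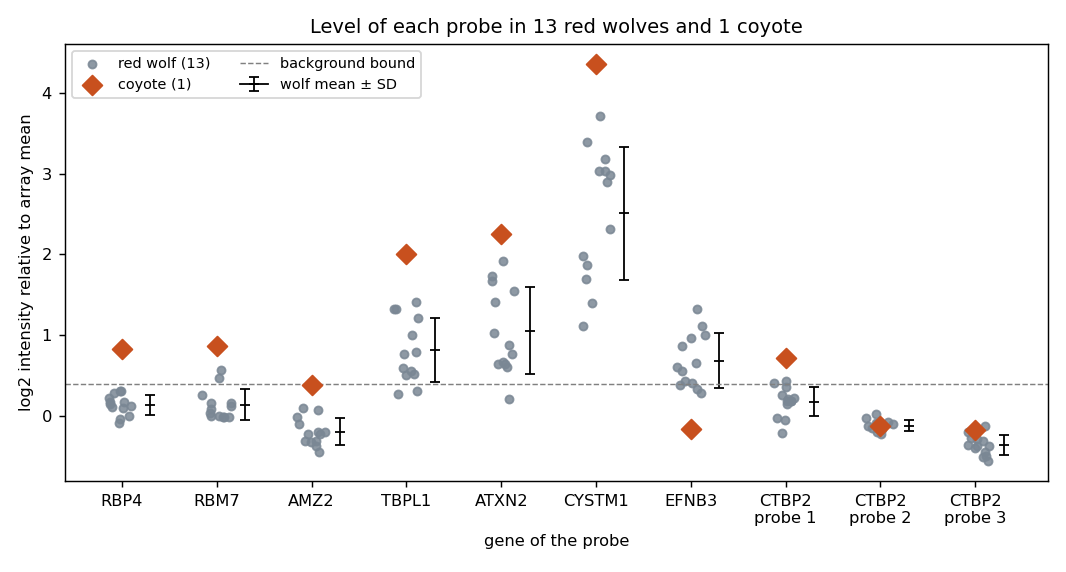
Log2 intensity relative to the array mean of the 10 probes in each animal, with grey points for the 13 red wolves, orange diamonds for the coyote, black bars for the wolf mean ± SD and a dashed line at the background bound of 0.396. The coyote lies above all wolves for 7 probes, below them for EFNB3 and inside their range for CTBP2 probes 2 and 3.

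In all, 7 of the 10 probes had the coyote above the highest wolf and 1 below the lowest, a split that the choice of the genes fixed. Over all probes of the array 5.76% had the coyote above the highest wolf and 6.4% below the lowest. In limma's moderated test over all probes 1 probe, 0.00411%, passed at an adjusted p under 0.05, that of the Fc receptor chain gene FCER1G, which is not among the 8 genes.

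The coyote's 4 arrays lay on 4 slides, each beside 7 wolf arrays, and the direction was the same on all 4 slides for each of the 8 genes. The choice of the genes favours this, because the coyote level used in it came from the same 4 arrays. They are repeats of 1 labelled sample and do not repeat the finding in another animal. Against the wolves of the same slide CYSTM1 was 1.59 to 2.05 higher, ATXN2 0.94 to 1.57, TBPL1 0.92 to 1.34, RBM7 0.56 to 0.81, RBP4 0.57 to 0.76 and CTBP2 0.38 to 0.76. AMZ2 varied most in proportion, from 0.25 to 0.93, and EFNB3 was between -1.08 and -0.73. Slide differed for 6 of the 10 probes among the wolf arrays at an adjusted p under 0.05 (limma), and for 4399 of all 24354 probes. It was a term of the fit.

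**Figure D2:**
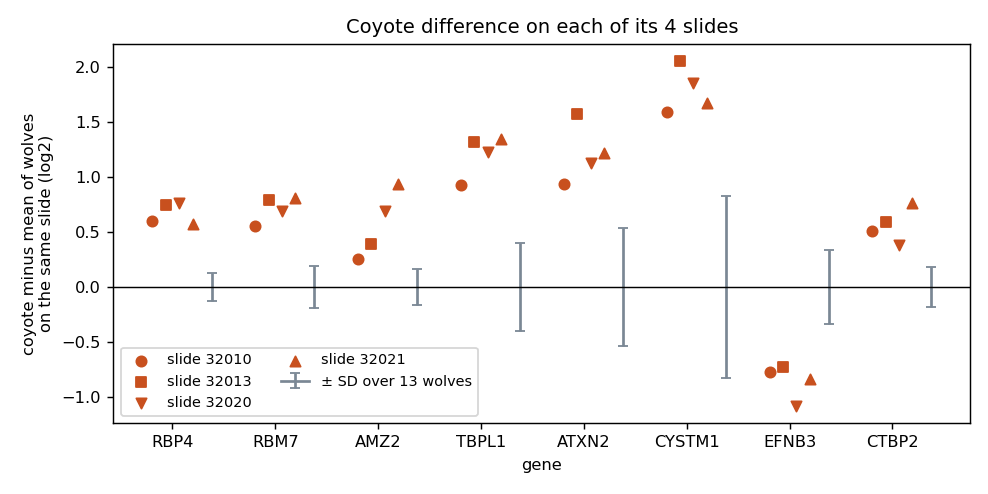
Log2 level of the coyote minus the mean of the wolves on the same slide, for each gene and each of the coyote's 4 slides (orange symbols), beside the SD over the 13 wolves (grey bars around 0). The differences keep their sign on all 4 slides, which the choice of the genes favours, with AMZ2 running from 0.25 to 0.93.

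The step from the coyote to the nearest wolf, a gap that the choice of the genes made, is given with the error of repeated arrays, which leaves out the spread between animals. It was 0.64 (SE 0.12) for CYSTM1, 0.60 (SE 0.11) for TBPL1, 0.51 (SE 0.09) for RBP4, 0.45 (SE 0.10) for EFNB3 and 0.34 (SE 0.09) for ATXN2. It was smaller for RBM7, at 0.29 (SE 0.10), for CTBP2, at 0.29 (SE 0.12), and for AMZ2, at 0.28 (SE 0.10). Between neighbouring wolves most steps stayed within 2 SEs. CYSTM1 had 5 wolf steps beyond that, ATXN2 had 2, TBPL1 and RBM7 had 1 each, and RBP4, AMZ2, EFNB3 and CTBP2 had 0. The largest step between wolves was 0.58 for CYSTM1, which left 6 wolves at 2.32 or lower and 7 at 2.89 or higher.

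The labels of 3 wolves note collection in the wild, as those of the coyote do, and they lie in the wolves' range that chose the genes. TBPL1 was 1.41 in wolf 111080, 1.32 in wolf 11310 and 0.77 in wolf 11136, against 2.01 in the coyote. EFNB3 was 0.97, 0.65 and 0.28 in the same wolves, against -0.17, and RBP4 was 0.17, -0.04 and 0.31, against 0.82. In the same order CYSTM1 was 3.72, 3.39 and 3.03, against 4.36, and ATXN2 was 1.91, 1.55 and 0.64, against 2.25. RBM7 was 0.57, 0.47 and -0.02, against 0.86, CTBP2 0.35, 0.26 and 0.19, against 0.71, and AMZ2 -0.23, 0.07 and -0.10, against 0.38. Wolf 111080 was the highest wolf for TBPL1, CYSTM1, ATXN2 and RBM7. Wolf 11136 was the highest for RBP4 and the lowest for EFNB3 and RBM7. The note is missing for other free-ranging wolves, so no comparison by it was made. The part of free-ranging life in the coyote's levels was not tested.

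The next question was whether these genes also varied among the wolves, with the coyote left out. Each of the 8 genes differed among the 13 wolves by more than its repeated arrays, by limma's F test across animals, slide being a term of the model. CYSTM1 had the largest F, 63.7 (adjusted p = 5.33e-27), with an SD of 0.83 between wolves and 0.17 between arrays. ATXN2 had an F of 44.4 (adjusted p = 3.53e-23), TBPL1 23.1 (adjusted p = 2.09e-16) and EFNB3 17.8 (adjusted p = 7.42e-14). RBM7, AMZ2 and CTBP2 had F between 5.04 and 6.34 (adjusted p of at most 0.00018), and RBP4 was nearest the threshold, with an F of 3.17 (adjusted p = 0.0169).

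RBP4 lost this call in several settings, with an adjusted p of 0.228 without the slide term, 0.116 without wolf 11274 and 0.0572 without wolf 11310. The call was also lost without slide 32010, 32013, 32020 or 32022, at 0.0785, 0.0999, 0.0612 and 0.151. The 2 dim CTBP2 probes did not pass (adjusted p = 0.733 and 0.201). In all, 8 of the 10 probes passed, where 11.2% of all probes and 78.1% of the 2064 above the background bound did; 4 of the 10 lay above that bound and all 4 passed. The spread of the wolves was part of the comparison that chose the genes, which favours a small spread.

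TBPL1, ATXN2, CYSTM1 and CTBP2 varied together from wolf to wolf, though CTBP2 was below the background bound in all but 2 of them. All 4 were above their medians in wolves 111080, 11206, 11270 and 11310, and all 4 below them in wolves 10406, 10632, 11148 and 11273. All 6 pairs of these 4 genes were correlated over the 13 wolves after adjustment over the 28 pairs of the 8 genes. Their r are to be read beside those of other named probes above the bound. Over these probes the 95th percentile of r was 0.930 with TBPL1, 0.919 with ATXN2, 0.886 with CYSTM1 and 0.810 with CTBP2. For TBPL1 and ATXN2 Pearson's r was 0.924 (two-sided permutation p = 4e-05, adjusted p = 0.00112), and Spearman's rho was 0.940 (permutation p = 3e-05, adjusted p = 0.00084). For TBPL1 and CYSTM1 r was 0.882 (permutation p = 0.00023, adjusted p = 0.00215), while rho was 0.863 (permutation p = 0.00031, adjusted p = 0.00289). For TBPL1 and CTBP2 r was 0.849 (permutation p = 0.00013, adjusted p = 0.00182), while rho was 0.824 (permutation p = 0.00106, adjusted p = 0.00694).

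The other 3 pairs of this set had lower r, though not all a lower rho. ATXN2 had r = 0.813 with CYSTM1 (permutation p = 0.00126, adjusted p = 0.00706; rho = 0.769, permutation p = 0.00296, adjusted p = 0.0138). ATXN2 had r = 0.802 with CTBP2 (permutation p = 0.00071, adjusted p = 0.00497; rho = 0.863, permutation p = 0.00025, adjusted p = 0.00289). CYSTM1 with CTBP2 was near the threshold, with r = 0.671 (permutation p = 0.0116, adjusted p = 0.0464), and by rank it had rho = 0.813 (permutation p = 0.00124, adjusted p = 0.00694). The Pearson call of CYSTM1 with CTBP2 was lost in 18 of 25 other settings, among them the removal of any of 11 wolves (r between 0.613 and 0.692). That of ATXN2 with CYSTM1 was lost when arrays were scaled by their SD (r = 0.620, adjusted p = 0.0888), and those with CTBP2 when its 3 probes were averaged (r = 0.585 with TBPL1 and 0.426 with ATXN2, adjusted p = 0.0986 and 0.272).

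Without the 2 wolves farthest from the median of the first gene of a pair, r stayed between 0.653 and 0.876 for these 6 pairs. Within the 7 slides r was above 0 for each pair, between 0.740 and 0.933 for TBPL1 with CYSTM1 and between 0.149 and 0.904 for TBPL1 with CTBP2. The 6 wolves below and the 7 above the largest step of CYSTM1 were also taken apart, which narrows the range of CYSTM1 in each. How far the narrower range or the gap itself bears on r was not tested. With TBPL1 the r was 0.241 within the lower and 0.738 within the upper wolves, with ATXN2 0.368 and 0.584, and with CTBP2 -0.0379 and 0.393.

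RBM7 joined this set loosely and through 2 wolves. With TBPL1 it had r = 0.669 (permutation p = 0.00948, adjusted p = 0.0442), but by rank rho = 0.478 (permutation p = 0.101, adjusted p = 0.177). Without wolves 111080 and 11310, which had the highest RBM7, r was 0.345 (permutation p = 0.297), so the relation rests on these wolves, and the call was lost in 13 of 25 other settings. RBM7 with ATXN2 fell short of a call (r = 0.627, permutation p = 0.0187, adjusted p = 0.0583), and its r was 0.320 without the same 2 wolves. This pair was called without wolf 10537 or 11273, or slide 32011 or 32013, with r from 0.641 to 0.730. AMZ2 with TBPL1 passed by rank alone (r = 0.636, permutation p = 0.0211, adjusted p = 0.0591; rho = 0.698, permutation p = 0.00971, adjusted p = 0.0388), and r was 0.388 without wolves 11270 and 11310. Its r was called after quantile normalization (0.764, permutation p = 0.00265, adjusted p = 0.0148) and in 4 other settings, with r of at most 0.766. After quantile normalization AMZ2 was also called with ATXN2 (r = 0.712) and CTBP2 (r = 0.655), and without wolf 10632 with CYSTM1 (r = 0.677).

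EFNB3 and RBP4 were in none of the called pairs of the 28. EFNB3 came nearest with ATXN2, at r = 0.652 (permutation p = 0.0178, adjusted p = 0.0583), with a rho of 0.505 (permutation p = 0.0817, adjusted p = 0.153). EFNB3 with ATXN2 was called without wolf 11148 (r = 0.774, permutation p = 0.00344, adjusted p = 0.0161), and also with the dim probes left out, where the same r was adjusted over 6 pairs only (adjusted p = 0.0267). EFNB3 is the gene of the 8 that was lower in the coyote, while over the wolves its r with the other 7 genes ran from 0.0258 (AMZ2) to 0.652. RBP4 had r between -0.395 and 0.156 with the other 7, the lowest with RBM7 (permutation p = 0.180, adjusted p = 0.266; rho = -0.555, permutation p = 0.0516, adjusted p = 0.153). In total 7 pairs passed by r, 7 by rho and 6 by both.

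**Figure D3:**
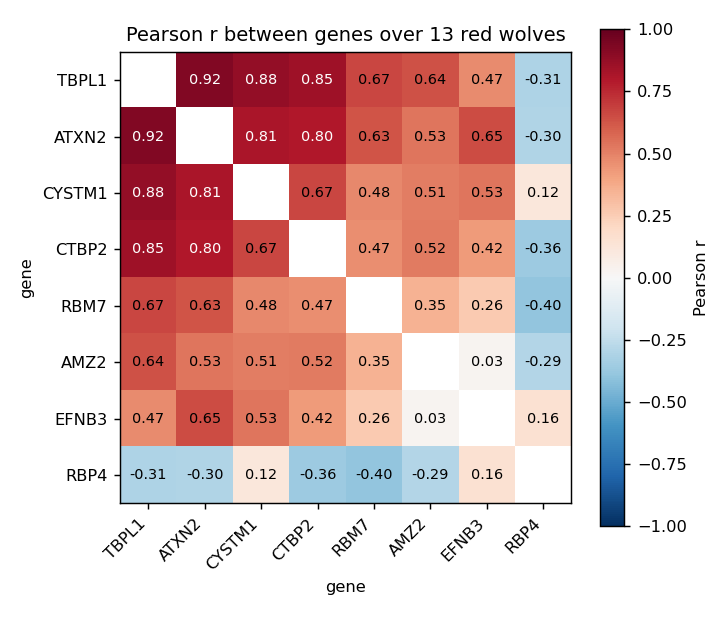
Pearson r between the 8 genes over the 13 red wolves, from -1 (blue) to 1 (red), with the coyote left out. TBPL1, ATXN2, CYSTM1 and CTBP2 form a block with r from 0.67 to 0.92, and RBP4 has values between -0.40 and 0.16.

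The arrays of the animals differ in the width of their signal distribution, and none of the 8 genes followed it over the wolves. Against the mean 95th percentile of a wolf's arrays, r ran from -0.301 for AMZ2 to 0.476 for EFNB3 (permutation p = 0.0985 for EFNB3, adjusted over the 8 genes 0.590; rho = 0.511, permutation p = 0.0786, adjusted p = 0.434). Once the wolves of most extreme width, 11136 and 10406, were left out, r ran from -0.483 for AMZ2 to 0.375 for RBP4. It was 0.297 for EFNB3. The coyote's own 95th percentile, 0.673, lay inside the wolves' range of 0.381 to 0.866.

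The coyote was then set beside the lines that the wolves drew, as a description. At the coyote's TBPL1 level the line of the 13 wolves gives 2.54 for ATXN2, where the coyote had 2.25, and 4.68 for CYSTM1, where it had 4.36. It gives 0.64 for CTBP2, where the coyote had 0.71. For all 6 pairs of TBPL1, ATXN2, CYSTM1 and CTBP2 the coyote lay within 2 residual SDs of the wolves' line. CTBP2 came near that limit, 0.26 above its line on CYSTM1 (residual SD 0.14) and 0.21 above that on ATXN2 (residual SD 0.11). EFNB3 lay 1.33 below its line on TBPL1, with a residual SD of 0.31. These lines are drawn beyond the highest wolf, and the choice of the genes by their coyote level favours these positions.

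**Figure D4:**
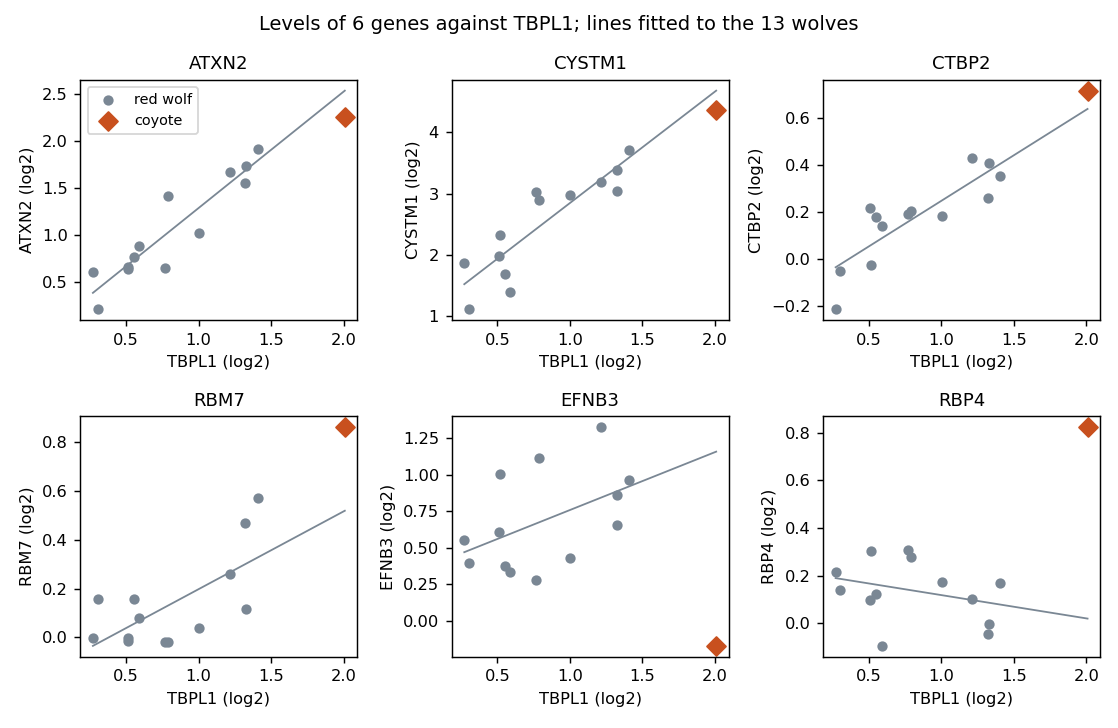
Log2 levels of 6 genes against TBPL1 in 13 red wolves (grey) and the coyote (orange diamond), with straight lines fitted to the wolves alone. The coyote lies near the extended line for ATXN2, CYSTM1 and CTBP2, and away from it for EFNB3, which stands at -0.17, and RBP4, which stands at 0.82. The choice of the genes by their coyote level favours these positions.

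The genes most like each of the 8 were sought over the 13 wolves, among named probes above the background bound, by Pearson r. TBPL1 was most like GAB2, a signalling adaptor (r = 0.975), PPP1CC, a phosphatase catalytic subunit (0.969), and SRSF5, a splicing factor (0.967). ATXN2 was most like PHF10, a chromatin remodelling subunit (0.968), JOSD1, a deubiquitinase (0.963), and TSFM, a mitochondrial translation factor (0.962). CYSTM1 was most like the glycolytic enzyme gene GAPDH (0.972), the vesicle transport GTPase gene RAB1A (0.968) and PPP1CA, another phosphatase subunit (0.968). CTBP2 was most like GAB2 (0.889), the RNA-binding protein gene ZFP36L1 (0.883) and ZNF207, a zinc finger gene (0.883).

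TBPL1, ATXN2 and CYSTM1 belong to a pattern that many transcripts share. Of 1633 probes compared, 184 (11.3%) had r of at least 0.9 with TBPL1, 135 (8.27%) with ATXN2 and 65 (3.98%) with CYSTM1. For RBP4, RBM7, AMZ2 and CTBP2 the count was 0, and for EFNB3 it was 1. RBM7 was most like PDIA3, a chaperone of the endoplasmic reticulum (0.819), PA2G4 (0.780) and CEBPB, a myeloid transcription factor (0.764). AMZ2 was most like NDUFB9, of respiratory complex I (0.826), ROMO1, a mitochondrial membrane protein (0.826), and TMEM208 (0.779). EFNB3 was most like FGFBP3 (0.902), NRSN2 (0.90) and SLC22A12, a urate transporter (0.886). RBP4 had only loose likenesses, to PPP2R1B, a phosphatase scaffold (0.691), the T cell surface receptor CD6 (0.661) and DCK, a nucleoside kinase (0.637).

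These most like genes were not picked by their coyote level, and 19 of the 23 stood inside the wolves' range there. Most probes do so: over all probes, dim ones included, 5.76% had the coyote above the highest wolf and 6.4% below the lowest. The coyote was above all wolves for PDIA3 (1.68 against at most 1.52) and PHF10 (2.86 against at most 2.59). It was below all wolves for PPP2R1B (0.10 against at least 0.18) and NRSN2 (0.468 against at least 0.470). GAB2 stood at 2.99 in the coyote, below the highest wolf at 3.43, and GAPDH stood at 5.38 and reached 5.72. Of the 24 lines of a gene on its most like genes, the coyote lay beyond 2 residual SDs of the wolves for 23, a description of genes chosen for their coyote level. At the coyote's GAB2 level the wolves' line gives 1.15 for TBPL1, and the coyote had 2.01, with a residual SD of 0.09. At its GAPDH level the line gives 3.30 for CYSTM1, and the coyote had 4.36, with a residual SD of 0.20. ATXN2 was 0.28 above its line on PHF10 (residual SD 0.14), the 1 line within 2 residual SDs, and 1.13 above its line on JOSD1 (residual SD 0.15).

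Partners of the 8 genes are given from lists of their pathways, with the genes themselves left out. Counts of partners that differed among wolves are to be read beside the 11.2% of all probes and the 78.1% of those above the bound, and counts outside the wolves' range beside the 5.76% above and 6.4% below. Over all probes the median difference of the coyote was -0.00211 and the median SD over wolves 0.0871, and no listed partner passed the coyote test. For RBP4, 28 of 30 listed genes of retinol transport and retinoid metabolism were measured, with a median difference of -0.01. TTR, the plasma partner of RBP4, read 0.11 in the coyote against 0.27 ± 0.10 (SD, n = 13) over the wolves, both below the bound. STRA6, the membrane receptor for RBP4, was above the range of the wolves (-0.12 against at most -0.16) and LRAT, which esterifies retinol, below it (-0.22 against at least -0.20), and both were at background. Among wolves 3 of the 28 differed, close to the share of all probes, and they include both genes above the bound. They were RARA (F test adjusted p = 1.19e-09) and RARG (0.00552), receptors of retinoic acid, and the retinol dehydrogenase gene RDH5 (6.17e-06).

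Liver and fat make most plasma RBP4. The mean level of 20 liver markers was -0.11 in the coyote and -0.11 to -0.03 in the wolves; these genes helped to set the background bound, so they cannot be counted against it. That of 7 adipose markers was -0.03 in the coyote and -0.06 to 0.02 in the wolves, and 0 of the 7 had a mean over the animals above the bound, with ADIPOQ up to 0.47 in a single wolf. The part of liver or fat RNA in the level of RBP4 was not tested.

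For RBM7, 20 of 21 genes of the nuclear exosome and its targeting complex were measured, with a median difference of 0.04. ZCCHC8 and MTREX, the subunits that work with RBM7, read -0.31 and -0.13 in the coyote, against -0.41 ± 0.07 and -0.25 ± 0.10 (SD, n = 13) in the wolves, below the bound. Of the exosome subunits, EXOSC6 was above the wolves' range and EXOSC4 and EXOSC10 below it, 3 of the 20 genes, close to the share of all probes, and all 3 were at background. Among wolves 4 of the 20 differed, both genes above the bound among them: ZFC3H1 (F test adjusted p = 2.52e-24) and PABPN1 (2.16e-13), which feed polyadenylated transcripts to the exosome, and EXOSC9 (0.0166) and EXOSC7 (0.0486). The only other archaemetzincin gene, AMZ1, has no probe here by its symbol.

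For TBPL1, 28 of 31 listed genes of the TBP family and the general transcription factors were measured, with a median difference of 0.05. TBP itself read -0.28 in the coyote, against -0.27 ± 0.04 (SD, n = 13) in the wolves, at background. GTF2B, the factor that bridges TBP and the polymerase, read 2.05 in the coyote, against 1.42 ± 0.60 over wolves, which reached 2.21. TAF3 and BRF1 were above the range of the wolves and TBPL2 and TAF2 below it, all at background. Among wolves 5 of the 28 differed, all 4 genes above the bound among them, namely GTF2B (F test adjusted p = 1.2e-21), GTF2H4 of the repair and transcription factor TFIIH (3.84e-13), and the TFIID subunits TAF10 (1.18e-07), TAF12 (8.01e-07) and TAF1 (0.000228).

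For ATXN2, 19 of 21 listed partners and stress granule genes were measured, with a median difference of 0.09. Among wolves 8 of the 19 differed, 6 of them among the 7 genes above the bound, a share near that of all probes there. PABPC1, the poly(A)-binding protein that ataxin-2 binds, read 4.91 in the coyote, against 4.64 ± 0.73 (SD, n = 13) in the wolves (F test adjusted p = 4.11e-20). Its paralogue ATXN2L stood at 2.52 and 2.79 ± 0.41. G3BP1, the core stress granule protein, stood at 2.11 and 1.62 ± 0.55. Among wolves ATXN2L (F test adjusted p = 3.52e-09), G3BP1 (4.93e-18), TIAL1 (6.57e-22), TARDBP (5.68e-20), FXR1 (1.68e-08), EIF4E (1.22e-06) and UBAP2L (0.00755) differed too, and no gene of this list lay outside the wolves' range in the coyote (0 of 19).

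For EFNB3, 20 of 21 other ephrins and Eph receptors were measured, with a median difference of -0.07. The sister ligands EFNB1 and EFNB2 read -0.37 and -0.13 in the coyote, against -0.30 ± 0.07 and -0.09 ± 0.10 (SD, n = 13) in the wolves, at background. EPHB4 was below the range of the wolves at background. EPHA4, a receptor of EFNB3, read 0.35 in the coyote, against 0.54 ± 0.16 over wolves, which ran from 0.24 to 0.80. Among wolves 3 of the 20 differed, and of the 3 genes above the bound only 1 did, EPHA4 (F test adjusted p = 0.0169). The others, EPHA8 (2.12e-05) and EPHA1 (0.00939), lay below the bound.

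For CTBP2, 21 of 24 listed corepressor genes and partners were measured, with a median difference of 0.01, and 0 lay outside the wolves' range in the coyote. CTBP1, its paralogue, read -0.23 in the coyote, against -0.14 ± 0.10 (SD, n = 13) in the wolves, at background. ZEB2, a repressor that recruits CtBP proteins, stood at 2.43 and 1.96 ± 0.82. Among wolves 5 of the 21 differed, all 4 genes above the bound among them, namely ZEB2 (F test adjusted p = 1.99e-29), the deacetylase gene HDAC1 (4.06e-16), the transcription factor gene FOXP1 (5.08e-18), and the histone methyltransferase genes EHMT1 (0.0233) and EHMT2 (8.24e-06).

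The mean level of 5 of the 6 blood cell marker lists lay inside the wolves' range in the coyote. The mean level of 17 neutrophil markers was -0.01 in the coyote and -0.03 to 0.04 in the wolves, and that of 16 T and cytotoxic cell markers 0.03 and -0.04 to 0.08. For 10 B and plasma cell markers it was -0.03 and -0.08 to 0.03, for 11 platelet markers 0.10 and 0.06 to 0.23, and for 15 red cell markers 0.74 and 0.61 to 1.06. HBD stood just below the wolves' range, at 5.39 against at least 5.41. The mean of 12 monocyte markers was 0.13 in the coyote and -0.13 to 0.03 in the wolves. Without FCER1G it was -0.05 and -0.13 to -0.02. The part of blood cell make-up in the levels of the 8 genes was not tested.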

How the data were processed

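Per the submitters' processing notes the arrays went through BeadStudio 1.5.0.34. The deposited values are log2 intensities that the authors centred within each array, per the labels' design text. The text says median, while in the table array means are 0 and medians lie between -0.167 and -0.0325. For background subtraction the sources used here name no method, and no detection values were used. Genes were named from the platform annotation. Animal, slide and position came from the labels.

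A fit of animal and slide to 56 arrays gave 1 value per animal. The coyote comparison (12 residual degrees of freedom, the coyote taking the wolves' spread) and the F test of animal terms over 52 wolf arrays were run in limma (version 3.58.1, R 4.3.3), whose prior variance followed the intensity, with Benjamini-Hochberg adjustment over 24354 probes at 0.05. P-values of the F test measure differences beyond repeated arrays of 1 labelled sample. Relations used 100000 permutations, each gene by its brightest probe, and the 3 most like genes are named. List genes named are those called or, after seeing values, the closest partners of the 8 genes and genes outside the wolves' range. The lines of the wolves and the split at the CYSTM1 gap were added after seeing the data. The 8 genes and the lists were chosen with earlier results of these data known. The fits were tested on simulated data. Alternatives were other array scalings, no slide term, no trend, dim probes left out, and leaving out each wolf and each slide. No probe or protein sequence was used here.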

Additional observations from a re-analysis of the deposited data

Results flagged for a closer look

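Among the coyote's 4 arrays of RBP4, 1 stood away from the rest. It read 0.96, on slide 32020, and the others read 0.69, 0.71 and 0.72. The gap was 0.885 of the whole range, above Dixon's 95% critical value for 4 values. Of 10 probes examined in this way RBP4 was the only one past that value, and chance marks about 1 in 20. The check used array values before removal of slide differences. Slide differed for RBP4 among the wolf arrays (limma, adjusted p = 0.0113). Against the wolves of slide 32020 the coyote was 0.76 higher, the largest of its 4 slide differences, which ran from 0.57. The difference on slide 32013, where the coyote read 0.72, was close to the largest. Without slide 32020 the difference from the wolves was 0.67. The cause was not tested.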

How the results depend on the processing

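No called value reversed. The coyote stayed outside the wolves' range for each of the 8 genes wherever its probe was fitted, which the choice of the genes, and for left-out wolves the smaller group, favours. The difference of a dim CTBP2 probe lay on both sides of 0 (-0.06 to 0.03). With the dim probes left out, 4 of the 8 genes remained in the fit, 140 of 2962 probes had the coyote outside the range, 4 genes and 1790 probes (of 2732) differed among wolves, and 4 of 6 pairs were called, 3 of the 7 called otherwise and EFNB3 with ATXN2. With the probes of a gene averaged, 3 pairs were called. The coyote test called 1 probe in the reported fit, 2 after 75th-percentile centring (FCER1G and RBP4) and 0 in limma without an intensity trend (860 at an unadjusted p under 0.05). Leaving out 1 wolf or 1 slide gave 1 to 4, with 4 without wolf 11310 (FCER1G, RBP4, AZIN1 and CHCT1) and 2 without wolf 111080, 11136 or 11148, or slide 32010. Where the coyote test called 2 probes, the one beside FCER1G was RBP4, or RBM7 without wolf 111080. RBP4 and RBM7 were chosen by their coyote level, so their calls in this test carry no weight. The r of TBPL1 stayed between 0.839 and 0.946 with ATXN2 and between 0.803 and 0.904 with CYSTM1, called in every setting run. No analysis paired by animal was possible because coyote and wolves share no replicate number, while the slides they share entered the fit as a term. Probes near the background bound, as of RBP4, RBM7, AMZ2, EFNB3 and CTBP2, limit what their folds show.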
